A study of Mus musculus with 5 samples.

Results

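H19, Meg3 and Rasgrf1 are imprinted loci of the mouse, at which the control DNA of the paternal chromosome is methylated and that of the maternal chromosome is not. Methylation was examined at 80 CpGs in windows around them, out of 1780536 autosomal CpGs measured in all 5 libraries. The windows were taken on the mm9 build as chromosome 7 from 149755000 to 149775000 for H19, with its control region from 149766000 to 149768500, chromosome 12 from 110760000 to 110785000 for Meg3, and chromosome 9 from 89762000 to 89778000 for Rasgrf1. A CpG counted as a member when its second count, defined below, was at least 10 in every library. This kept 20 of 67 listed CpGs at H19, 52 of 113 at Meg3 and 8 of 16 at Rasgrf1. The choice used position and the second count, which in 4 libraries was itself computed from the deposited level and total, so it is a filter on depth only under the reading of those columns given below.

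H19 encodes a maternally expressed long noncoding RNA, and its methylated paternal control region no longer binds the insulator protein CTCF, which lets downstream enhancers reach Igf2. Meg3 is likewise a maternally expressed long noncoding RNA, of the Dlk1 domain, whose promoter acquires methylation on the paternal chromosome after the intergenic control region has done so in the male germ line. Rasgrf1 encodes a Ras guanine nucleotide exchange factor and is expressed from the paternal chromosome, on which a region upstream of the gene is methylated. A locus with 1 methylated and 1 unmethylated chromosome is read as intermediate methylation when the chromosomes cannot be told apart, as here.

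Libraries were made by reduced representation bisulfite sequencing, in which the enzyme MspI enriches CpG-rich fragments and bisulfite converts unmethylated cytosines. There were 2 K36M libraries, from mice expressing histone H3.3 that is dominant negative at lysine 36, 2 K9M libraries, from mice expressing H3.3 that is dominant negative at lysine 9, and 1 wildtype (WT) library. Mice of both mutant groups drank 2 mg/ml doxycycline, while no doxycycline is recorded for WT, so that expression of a mutant and the drug cannot be told apart against WT. The labels name the cells HSCs (hematopoietic stem cells) and also say that they were sorted from peripheral blood. Strain, age, sex, promoter and number of animals are not given in the sources used here, and methylation calls cannot check the cell type against marker genes. The labels do not say that replicates come from separate animals. Any spread between replicates that a p-value allows for may therefore be technical.

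Levels are given as a percent of a plateau that each library reaches at its most methylated regions. This scale was needed because CpGs at 98% or more in K9M replicate 2 had deposited medians of 53.2% and 55% in the K36M libraries, 56.8% in K9M replicate 1 and 54.3% in WT. In those 4 libraries the deposited total was taken to be a methylated count plus a second count that follows reads of either kind, and the total of K9M replicate 2 as the second count alone. The relative level is the ratio of methylated to second count divided by the plateau, 1.22 and 1.26 in K36M, 1.37 and 0.954 in K9M and 1.23 in WT. It can exceed 100%, and a change common to all CpGs of a library cannot be seen on it. Every level below rests on this reading. The libraries listed 3356656 to 3534966 CpGs each, and second counts at the members ranged from 10 to 112.

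The members lay in 13 clusters, separated by gaps of more than 500 bases and numbered in order from H19 through Meg3 to Rasgrf1. Mean levels over the 5 libraries placed 2 clusters under 20%, 4 over 80% and 7 between these limits. Among single members, 48 of 80 (60%) averaged 20% to 80%, against 8.63% of all CpGs. At 1-kb resolution 6 of 10 window tiles (60%) were in this range, against 13.2% of all 152678 tiles. No test was run on these shares.

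**Figure D1:**
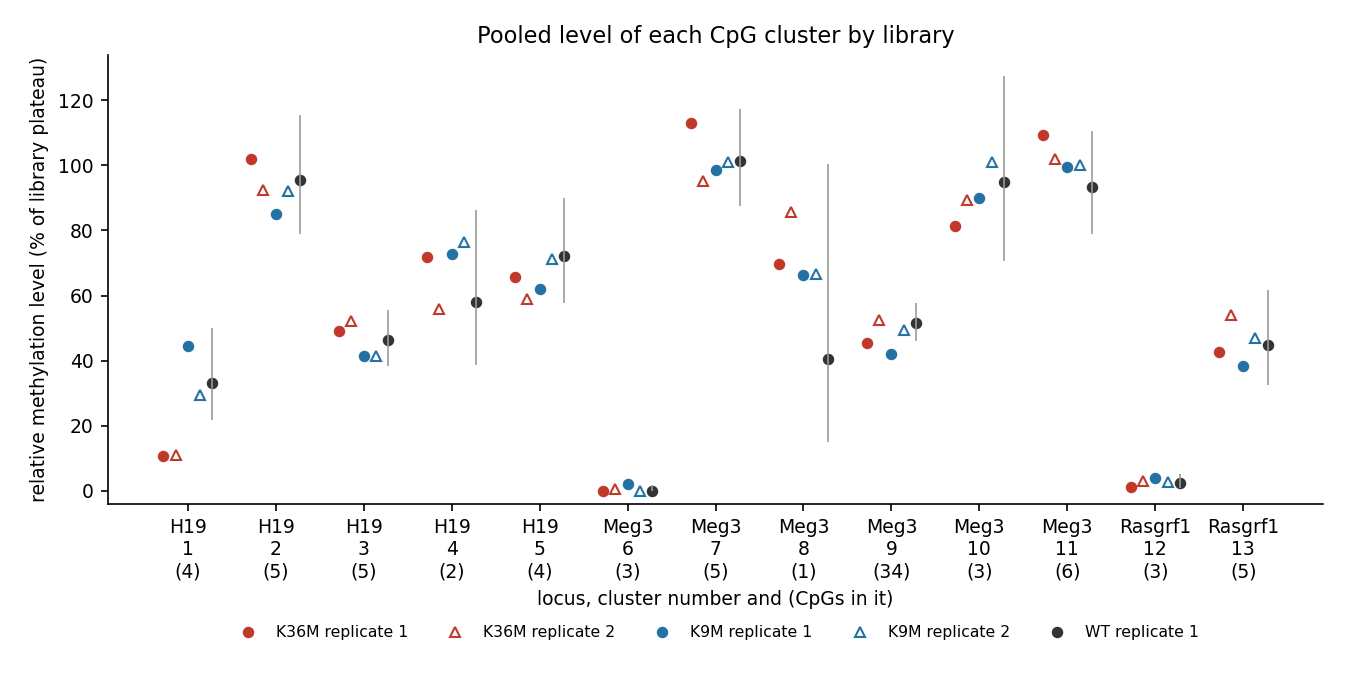
Pooled relative methylation level (vertical axis, percent of each library's plateau) of the 13 CpG clusters, with the number of CpGs in brackets, for 2 K36M, 2 K9M and 1 WT library; each point is a library and the grey line is the 95% counting interval of WT. H19 cluster 1 is at 10.8% and 10.99% in the K36M libraries, against 44.3% and 29.5% in K9M and 33.2% in WT, while clusters 6 and 12 are under 5% in every library.

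The H19 control region held intermediate to high methylation in all 5 libraries. Its 4 members form cluster 5, from 149767047 to 149767291, at 65.6% and 58.9% in K36M, 62.1% and 71.1% in K9M and 72.1% in WT (95% counting interval 57.7% to 90.1%). All 4 mutant libraries lay below WT and inside its counting interval. The mean was 62.2% ± 4.71 in K36M and 66.6% ± 6.39 in K9M (SD, n = 2 each). The 1-kb tile of the control region differed by -9.89 points between K36M and WT and by -5.54 points between K9M and WT, and neither passed (adjusted p = 1 in both, limma-moderated logistic model). The K36M minus K9M difference was -4.35 points, for which a two-sided exact permutation test gave p = 0.667, where 2 libraries against 2 allow no less than 0.333. Every left-out library moved it by over 1.5 times: it was -7.68 points without K36M replicate 1, -1.01 without K36M replicate 2, -8.86 without K9M replicate 1 and 0.169 without K9M replicate 2.

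All 4 mutant libraries were below WT at 2 of the 4 CpGs of the control region, 149767047 and 149767092. At 149767135, the lowest of the 4, levels were 59.8% and 39.7% in K36M, 55.3% and 59.9% in K9M and 58.5% in WT. At 149767092, the most deeply read, they were 71.5% and 62.4% in K36M, 67.0% and 75.8% in K9M and 76.1% in WT, from second counts of 46 to 83. Both K36M libraries were below WT at 3 of the 4 CpGs. Over all CpGs at 20% to 80%, both K36M libraries were below WT in 50.3% and both K9M libraries in 30.4%. The share with all 4 mutant libraries below WT was not computed, and each of these orders rests on the lone WT library.

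Cluster 3, of 5 CpGs in 78 bases from 149764070, stood close to 50%. Its pooled level was 49.1% and 52.1% in K36M, 41.5% and 41.5% in K9M and 46.2% in WT (95% counting interval 38.3% to 55.6%). The 2 K36M libraries were above WT and the 2 K9M libraries below it. Both K36M libraries also exceeded both K9M libraries at each of its 5 CpGs, an order found in 10.9% of all CpGs at 20% to 80%. These 5 CpGs are close enough to share reads. The tile that holds cluster 3 and the 2 CpGs of cluster 4 averaged 52.5% ± 0.414 in K36M and 46.0% ± 1.31 in K9M (SD, n = 2 each). Its difference of 6.50 points did not pass the test (adjusted p = 0.942, limma-moderated logistic model). Cluster 4 alone went the other way, at 71.8% and 55.9% in K36M, 72.8% and 76.3% in K9M and 57.9% in WT.

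Highly methylated DNA separated cluster 3 from the far end of the window. Cluster 2, of 5 CpGs from 149761700 to 149761917, was at 102% and 92.4% in K36M, 85.0% and 92.1% in K9M and 95.5% in WT. Each library was thus near its plateau there, and no comparison of its tile passed the test.

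The far end of the H19 window held the one difference that passed it. Cluster 1, of 4 CpGs from 149757637 to 149757763, ends 8.24 kb below the control region. Its level was 10.8% and 10.99% in K36M, 44.3% and 29.5% in K9M and 33.2% in WT (95% counting interval 21.6% to 50.0%). The K36M libraries lie close together and below the other 3, and the K9M libraries lie on either side of WT. The 95% counting intervals of the K36M libraries, 4.46% to 22.6% and 5.64% to 19.7%, are far wider than the gap between them. That of K36M replicate 1 overlaps the interval of K9M replicate 2, 19.8% to 43.0%, and that of WT. Enhancers shared by H19 and Igf2 are known beyond the end of H19 in mouse, but no mm9 annotation was used here, and whether cluster 1 falls in one was not tested.

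In the tile of cluster 1, K36M was 26.0 points below K9M, at 10.9% ± 0.140 against 36.9% ± 10.5 (SD, n = 2 each) (adjusted p = 0.0360, limma-moderated logistic model). The model takes each CpG call as separate, though CpGs this close can share reads. The dispersion of this tile was at its floor of 1, so the p-value does not allow for shared reads and may be too small. Tiles called lower in this comparison made up 1.5% of all tiles, and this was 1 of 10 window tiles. Against WT, K36M was 22.3 points lower, which did not pass (adjusted p = 0.173, same model). K9M was 3.71 points above WT (adjusted p = 1). The call against K9M was lost without K36M replicate 1, K36M replicate 2 or K9M replicate 1, where the same model gave adjusted p = 0.0677, 0.179 and 0.0665. It was lost too with a plateau from the top 40% of tiles (adjusted p = 0.0611) and under limma on relative levels (adjusted p = 0.345). Against WT the tile passed without K9M replicate 1 or K9M replicate 2, where the logistic model gave adjusted p = 0.0469 and 0.0493, in which 1 residual degree of freedom is left.

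Both K36M libraries were the lowest of the 5 at each CpG of cluster 1. At 149757691, the member with the largest K36M minus WT difference in this block, levels were 15.4% and 19.1% in K36M, 66.8% and 55.7% in K9M and 55.2% in WT. At 149757763, the lowest member, they were 5.14% and 3.06% in K36M, 29.1% and 21.0% in K9M and 17.6% in WT. At 149757637 they were 12.7% and 4.67% in K36M, 33.6% and 24.2% in K9M and 25.3% in WT. The K36M libraries were thus lowest at 4 of 4 CpGs by rank alone. For K36M against K9M, the logistic model on single CpGs gave unadjusted p = 0.137, 0.267, 0.0559 and 0.0710, in order of position. Each K36M level at 149757763 rests on 1 methylated count. At 149757681 levels were 10.3% and 15.3% in K36M, 46.3% and 18.0% in K9M and 33.1% in WT. There and at 149757637 the K9M libraries lay on either side of WT. Second counts were only 10 to 35, and the CpGs lie within 127 bases, so they are not independent. For comparison, both K36M libraries were below both K9M libraries in 38% of all CpGs at 20% to 80%. The share in which they were also below WT was not computed. The mean over the 5 libraries at 149757763 was 15.2%, outside that range.

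**Figure D2:**
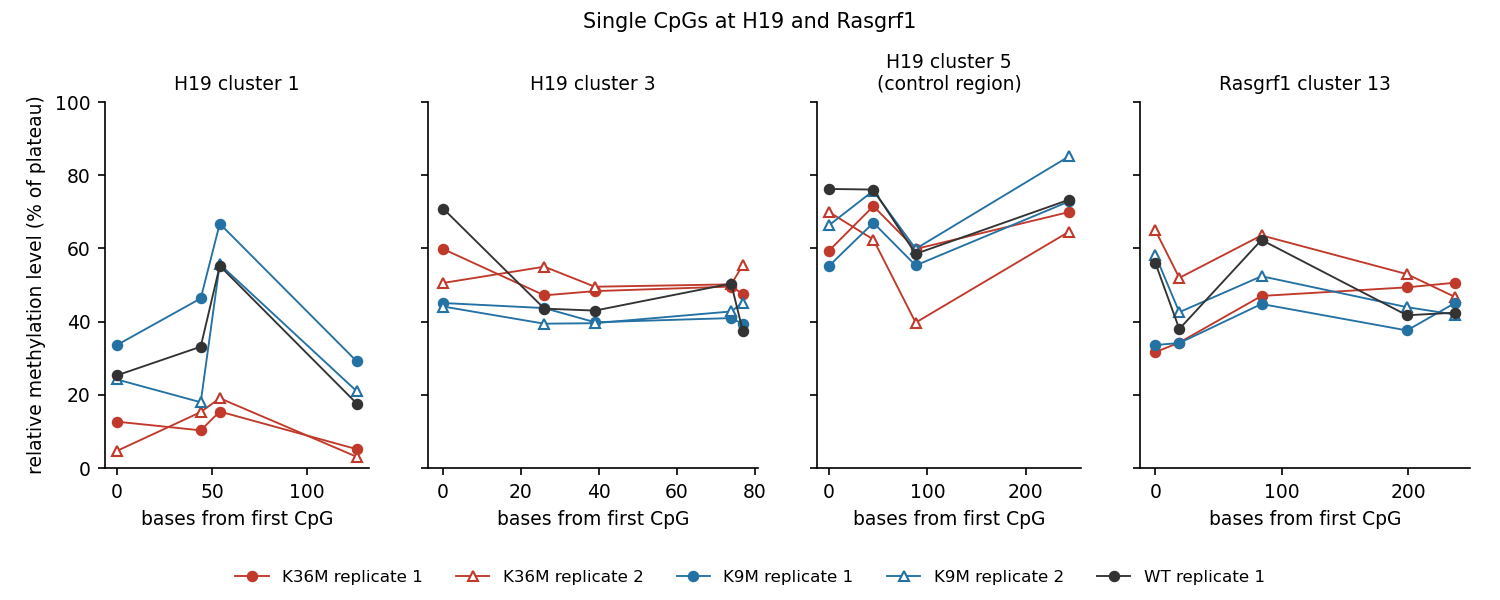
Relative methylation level of single CpGs (vertical axis, percent of plateau) by distance in bases from the first CpG of H19 clusters 1, 3 and 5 and Rasgrf1 cluster 13; each line is a library. In cluster 1 both K36M lines stay at or below 19.1%, under both K9M lines and WT, and in clusters 5 and 13 the lines of the groups cross.

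The Meg3 promoter had a lower pooled level than the members of its cluster before it and those after it in all 5 libraries. RefSeq's Meg3 promoter sequence, 250 bases before to 50 after the transcription start on the plus strand (GRCm38.p6, chr12:109540746-109541045), was placed on the measured positions by its CpG spacing. All 11 CpGs listed in its span matched a CpG of the sequence, and no other of 24702 offsets across the window matched more than 5. The start then falls at 110779206 on mm9. The sequence is shown because 10 members lie in it, and capitals mark its CpGs.

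Meg3 promoter: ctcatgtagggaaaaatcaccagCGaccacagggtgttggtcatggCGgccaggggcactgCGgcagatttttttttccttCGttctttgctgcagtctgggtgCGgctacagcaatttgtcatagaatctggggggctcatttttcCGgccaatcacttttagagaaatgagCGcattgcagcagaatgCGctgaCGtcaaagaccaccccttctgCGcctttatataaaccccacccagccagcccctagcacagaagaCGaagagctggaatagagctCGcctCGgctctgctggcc

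The sequence holds a cAMP response element, TGACGTCA, from -57 to -50, a letter run found on either strand in 1.79% of 32851 RefSeq promoters. It also holds a TATA box, TATAAA, from -25 to -20, found in 13.6% of them. A match of letters is a description and not a binding site.

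Cluster 9 spans the promoter with 34 members from 110778312 to 110780022. Before the promoter sequence, 14 members pooled to 64.1% and 64.0% in K36M, 58.5% and 66.8% in K9M and 57.5% in WT. Within it, 10 members pooled to 26.1% and 33.3% in K36M, 24.8% and 17.7% in K9M and 29.9% in WT. After it, 10 members pooled to 46.3% and 59.1% in K36M, 40.6% and 50.3% in K9M and 57.5% in WT. The pooled level of the promoter sequence was thus below that of both flanks in each library. In K9M replicate 1 this did not hold for the adjoining CpGs, since its 7 members from 74 to 319 bases past the start ranged from 0% to 29.1%, 6 of them below the 24.8% of the promoter sequence.

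The levels changed steeply along the cluster. At position -890 they were 82.3% and 96.2% in K36M, 80.9% and 105% in K9M and 81.0% in WT. At -146, the lowest member above the midpoint of the window, K36M replicate 1 had 0 methylated counts over a second count of 12, K36M replicate 2 was at 36.4%, the K9M libraries were at 25.5% and 8.06% and WT was at 22.1%. The CpG inside the cAMP response element, at -54, was at 20.6% and 24.8% in K36M, 18.8% and 9.11% in K9M and 24.3% in WT. At 11, just past the start, levels were 44.7% and 53.7% in K36M, 31.2% and 33.5% in K9M and 42.4% in WT. By 810 they had reached 80.1% and 89.2% in K36M, 82.3% and 74.6% in K9M and 76.2% in WT.

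**Figure D3:**
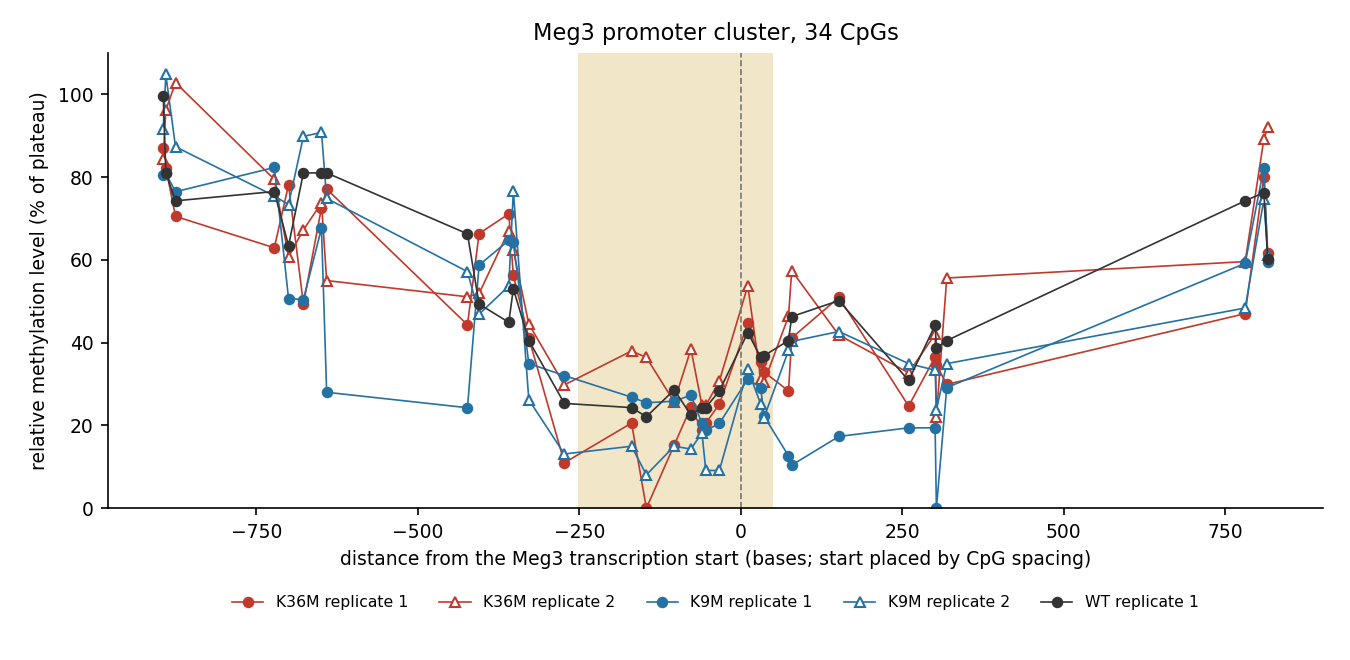
Relative methylation level of the 34 CpGs of Meg3 cluster 9 (vertical axis, percent of plateau) by distance in bases from the transcription start, which was placed by CpG spacing; each line is a library and the shaded band is the printed promoter sequence. All 5 libraries fall towards the promoter, to pooled levels of 17.7% to 33.3% in the band, and their pooled levels are higher on both sides, but K9M replicate 1 stays at 0% to 29.1% from 74 to 319 bases past the start.

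No Meg3 tile passed the test in any comparison. The tile from 110779001, with 18 members, was at 29.8% and 37.2% in K36M, 23.2% and 26.9% in K9M and 39.0% in WT (95% counting interval 32.4% to 46.9%). Both K9M libraries were below the K36M libraries and WT there. The K9M minus WT difference was -14.0 points (unadjusted p = 0.00181, adjusted p = 0.339, limma-moderated logistic model). K36M exceeded K9M by 8.49 points, at 33.5% ± 5.24 against 25.0% ± 2.61 (SD, n = 2 each) (adjusted p = 0.177, same model). With tiles shifted by 500 bases, the tile from 110778501 with 24 members differed by -6.33 points between K9M and WT (adjusted p = 1).

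The K9M libraries were low in different stretches of the promoter cluster. At -33, K9M replicate 1 was at 20.5% and K9M replicate 2 at 9.11%, against 28.4% in WT. At 79, K9M replicate 1 was at 10.4% and K9M replicate 2 at 40.3%, against 46.3% in WT. From 74 to 319 bases past the start, K9M replicate 1 ranged from 0% to 29.1%, and K9M replicate 2 from 23.8% to 42.7%. The second counts there were 10 to 29 in all 5 libraries, and neighbouring CpGs of such a stretch share reads.

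The adjoining Meg3 tile, from 110778001 with 14 members, differed by 6.52 points between K36M and WT and by 5.17 points between K9M and WT (adjusted p = 1 in both, limma-moderated logistic model). Its member at -359 had the largest K36M minus WT difference above the midpoint of the window, at 71.1% and 67.1% in K36M, 64.7% and 53.7% in K9M and 44.9% in WT. The member at -641 had the largest K9M minus WT difference, at 77.1% and 55.0% in K36M, 28.01% and 74.9% in K9M and 81.0% in WT. There the K9M libraries lie on either side of K36M replicate 2.

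Of the 5 other Meg3 clusters, 1 was unmethylated and 3 were near the plateau. Cluster 6, of 3 CpGs from 110763922 to 110764001, was at 0% and 0.470% in K36M, 2.21% and 0% in K9M and 0% in WT (upper counting limit 1.61%). Less than 1 kb away, cluster 7, of 5 CpGs from 110764888, was at 113% and 95.2% in K36M, 98.5% and 101% in K9M and 101% in WT. Cluster 10, of 3 CpGs from 110782981, ranged from 81.3% to 101% and cluster 11, of 6 CpGs from 110784119, from 93.4% to 109% over the 5 libraries.

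The intergenic stretch between these clusters and the promoter was thinly covered. Of 23 CpGs listed below the midpoint of the window, 9 were members, and outside clusters 6 and 7 only the CpG at 110767055 was one. It was at 69.6% and 85.6% in K36M, 66.2% and 66.7% in K9M and 40.5% in WT, with second counts of 13 to 22. WT was the lowest library, but its 95% counting interval of 15.01% to 100.3% covers the 4 mutant values. A single CpG makes no tile, so it was not tested among tiles.

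Rasgrf1 showed the contrast of an unmethylated and an intermediate cluster 3.39 kb apart. Cluster 12, of 3 CpGs from 89769450 to 89769529, was at 1.13% and 2.99% in K36M, 3.94% and 2.59% in K9M and 2.31% in WT. Cluster 13, of 5 CpGs from 89772915 to 89773152, was at 42.5% and 54.1% in K36M, 38.4% and 46.9% in K9M and 44.8% in WT (95% counting interval 32.3% to 61.7%). The groups overlap in cluster 13, whose 5 CpGs averaged between 40.2% and 54.0% over the libraries.

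The cluster 13 libraries differed more within a group than between groups. Its mean was 48.3% ± 8.21 in K36M and 42.6% ± 5.999 in K9M (SD, n = 2 each). At 89772934, the lowest member, levels were 34.3% and 52.0% in K36M, 34.1% and 42.6% in K9M and 38.0% in WT. At 89772999, the highest, they were 47.0% and 63.6% in K36M, 44.8% and 52.4% in K9M and 62.3% in WT. At 89773114, where K36M differed most from WT, they were 49.4% and 53.0% in K36M, 37.6% and 43.9% in K9M and 41.7% in WT. Neither Rasgrf1 tile passed the test in any comparison (adjusted p = 1 throughout, limma-moderated logistic model).

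Across the 3 loci, 0 of 10 window tiles were called for K36M against WT, 0 of 10 for K9M against WT and 1 of 10 for K36M against K9M. Over all tiles the calls made up 0.679% (0.654% lower and 0.0242% higher), 0.132% (0.0458% lower and 0.0858% higher) and 1.59% (1.5% lower and 0.0976% higher), in the same order of comparisons. With 10 tiles, counts of 0 and 1 are near what these shares give, and say nothing particular about the loci. At an unadjusted p under 0.05 the window tiles numbered 1, 1 and 2 of 10, against 8538, 4791 and 11985 of all 152678 tiles. limma on relative levels called 0 window tiles in each comparison, whether or not it used a variance trend.

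**Figure D4:**
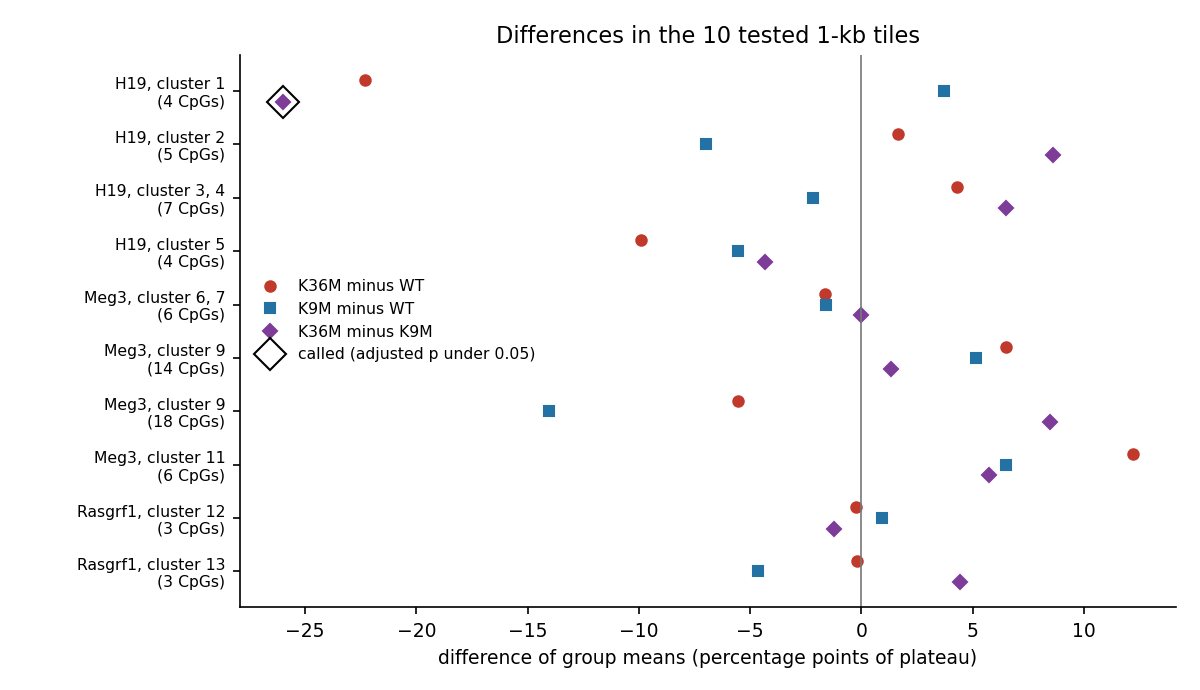
Differences of group means (horizontal axis, percentage points of plateau) in the 10 tested 1-kb tiles of the windows, for K36M minus WT, K9M minus WT and K36M minus K9M; the open diamond marks the called difference. The H19 tile of cluster 1 stands at -26.0 points for K36M minus K9M, while 2 other tiles differ from WT by more than 10 points without passing the test.

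The median K36M minus WT difference was -2.87 points in the 6 window tiles at 20% to 80%, against -4.89 points in all 20145 such tiles. For K9M minus WT it was -3.41 points against 1.52 points, and for K36M minus K9M 2.89 points against -6.32 points. Both K36M libraries were above both K9M libraries in 17 of 48 members at 20% to 80% (35.4%), against 10.9% of all such CpGs, and below both in 5 of 48 (10.4%), against 38%. Both K36M libraries were below WT in 19 of the 48 (39.6%, against 50.3% of all such CpGs) and above WT in 13 (27.1%, against 20.8%). Both K9M libraries were below WT in 22 (45.8%, against 30.4%) and above WT in 6 (12.5%, against 36.6%). Of the 48 members, 29 are at Meg3, mostly in 1 cluster with shared reads, so these counts have no test. The comparisons with WT share the lone WT library, and those of K36M share the K36M libraries.

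Pooled over whole windows, the group means of K36M and K9M were close. The H19 window was at 60.4% and 58.2% in K36M, 58.4% and 57.1% in K9M and 63.2% in WT. The Meg3 window was at 55.9% and 64.0% in K36M, 57.7% and 62.2% in K9M and 64.2% in WT. The Rasgrf1 window was at 16.8% and 19.8% in K36M, 18.6% and 18.6% in K9M and 17.1% in WT. The K36M minus K9M differences were 1.58, 0.00581 and -0.302 points. Two-sided exact permutation tests gave p = 0.667, 1 and 1, each with an adjusted p of 1 over 4 tests. As 2 libraries against 2 allow no p under 0.333, these tests could not have passed and do not show that the groups are alike. A window also pools unlike clusters, and K36M minus K9M was -26.0 points in H19 cluster 1.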

How the data were processed

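Methylation was measured in 5 libraries, 2 K36M, 2 K9M and 1 WT. The deposited tables give a fraction (methylation level) and a total count per CpG. Cutadapt and BSMAP were used, with mm9 as build, per the submitters' processing notes; versions and the formula of the level are not given in the sources used here. Starts were read as counted from 0 and are printed from 1. PCR ran for 12 cycles, per the labels' protocols. Intervals (exact binomial, 95%, methylated against second count) cover counting error only. They may misstate it, since the second count was taken to follow reads of either kind. Those of pooled levels also take each CpG call as separate, which by itself makes them too narrow where CpGs share reads.

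The methylated count was level times total, rounded. The plateau was the median ratio over the 20% of 1-kb tiles ranked highest. Tiles needed 3 CpGs with second counts of at least 10, and the 10 window tiles held 70 of the 80 members. A logistic model with the log plateau as offset was fitted to all 5 libraries, on 2 residual degrees of freedom. WT is thus assumed to vary like the mutants. Dispersion was moderated with limma 3.58.1 (R 4.3.3, squeezeVar) and held at 1 or more. It exceeded 1 in 23% of tiles and in none of the 10 window tiles. The p-values of those 10 tiles thus rest on binomial counting error, with no added spread between libraries. The binomial form treats methylated and second counts as exclusive, though the second count was taken to follow reads of either kind. It may therefore misstate the counting error behind these p-values, by an amount that was not tested. Calls needed an F-test p under 0.05, Benjamini-Hochberg adjusted over 152678 tiles, and 10 points. On simulated data the fit recovered most changed tiles at low spread between libraries and none at the widest spread simulated. The lower spreads were added after the first setting had recovered none. The simulation drew the 2 counts as exclusive, as the fit does. It thus cannot show how the fit behaves if the second count follows reads of either kind.

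Named tiles were those called or with most members per block; named CpGs were the lowest, the highest and those most different from WT, with promoter and cluster CpGs added after values were seen. Members and lists were chosen with earlier results of these data known. Alternatives were coverage minimums, plateau, deposited levels, limma, shifted tiles, single CpGs, left-out libraries and a replicate block; a variance trend in limma was added after the version without it had made 0 calls.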

Additional observations from a re-analysis of the deposited data

Results flagged for a closer look

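The H19 tile from 149764001, which holds clusters 3 and 4, was flagged because both K36M libraries lay above WT and both K9M libraries below it. Levels were 52.2% and 52.7% in K36M, 45.03% and 46.9% in K9M and 48.1% in WT, so K36M minus WT was 4.31 points and K9M minus WT -2.19 points. The direct comparison of K36M with K9M gave 6.50 points (adjusted p = 0.942, limma-moderated logistic model), and all 4 mutant values lie in the 95% counting interval of WT, 40.7% to 56.9%. The order held in cluster 3 but not in cluster 4, where both K9M libraries lay above WT and above both K36M libraries.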

How the results depend on the processing

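The difference between K36M and K9M in the H19 tile from 149757001 stayed negative, from -33.4 to -18.6 points, in every setting that gave it a value, but its call did not. It was called in 1 of 10 window tiles as reported and in 0 with a plateau from the top 40% of tiles (adjusted p = 0.0611), levels as deposited (0.475), limma on relative levels (0.345) and limma with a variance trend (0.111), in 0 of the tiles left at a coverage minimum of 20, where this tile was absent, and in 0 to 1 with a library left out. It was called at a coverage minimum of 5 (adjusted p = 0.0195), in shifted tiles (0.0384) and on deposited levels with the variance trend (1.76e-09), where K9M replicate 2 is on another scale. K36M against WT gained this tile, 1 of 10 against 0, on deposited levels with the trend (adjusted p = 0.000710), and 0 to 1 tiles with a library left out. The variance trend was chosen after seeing the data. Single CpGs gave 0 called members, and 0 with an unadjusted p under 0.05, in each comparison. Over all 1780536 CpGs, 0 were called. Those with an unadjusted p under 0.05 made up 0.351% for K36M against WT, 0.142% for K9M against WT and 0.687% for K36M against K9M. These shares are far below the p threshold itself, and counts of 0 in 80 members say nothing particular about the loci.

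Over all tiles, K36M against WT gave 1036 calls, and 261 with limma and a trend; K9M against WT gave 201, 69 with limma and a trend and 541 on deposited levels with the trend; K36M against K9M gave 2433, and 1124 with limma and a trend. Leaving out a library gave 885 to 1781, 398 to 408 and 1925 to 2645 calls in that order of comparisons. Deposited levels, limma and single CpGs gave 0 calls in all 3, where unadjusted p under 0.05 numbered 648, 517 and 2357, then 12247, 8600 and 18447, then 6244, 2524 and 12237.

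Small differences changed sign. For K36M minus K9M, the H19 control region ranged from -8.86 to 0.169 points with a library left out. The H19 window ranged from 0.477 to 2.69, and was -7.17 on deposited levels and -2.74 as the mean of CpG levels. The Meg3 window ranged from -4.05 to 4.06, and was -0.00255 at a coverage minimum of 5 and -9.23 on deposited levels. The Rasgrf1 window ranged from -1.80 to 1.19, and was 0.0539 with the top 40% plateau and 3.47 as the mean of CpG levels. On deposited levels, with or without the trend, K9M minus WT turned to 16.8, 4.20 and 9.83 points in the H19 tiles from 149761001, 149764001 and 149767001, 17.0 in the Meg3 tile from 110764001 and 3.24 in the Rasgrf1 tile from 89772001. K36M minus K9M turned there to -16.3 and -2.12 in the H19 tiles from 149761001 and 149764001, -9.97 and -20.05 in the Meg3 tiles from 110778001 and 110784001 and -3.67 in the Rasgrf1 tile from 89772001.

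The Meg3 tile from 110764001 turned to 0.224 at a coverage minimum of 5, 1.81 with the top 40% plateau, and ranged from -1.11 to 1.08 with a library left out (0.238 without K9M replicate 2) for K36M minus K9M. The Rasgrf1 tile from 89772001 turned to 0.310 with that plateau for K36M minus WT. With a library left out it ranged from -10.4 to 9.98 for K36M minus WT, from -11.1 to 1.82 for K9M minus WT and from -5.76 to 14.6 for K36M minus K9M (-2.03 without K9M replicate 1). K36M minus WT ranged likewise from -3.09 to 6.36 in the H19 tile from 149761001 and from -1.19 to 0.675 in the Rasgrf1 tile from 89769001. K9M minus WT ranged from -3.71 to 11.1 in the H19 tile from 149757001, and K36M minus K9M from -2.81 to 5.51 in the Meg3 tile from 110778001. Without K9M replicate 2, K36M minus K9M was 0.169 in the H19 tile from 149767001. The cause was not tested for any of these.

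K36M and K9M share only replicate numbers: the 2 pairs' deviations from their group means correlated at 0.0773 over all tiles. With a replicate block, calls over all tiles numbered 901, 184 and 2557, the window tiles called 0, 0 and 1, and the H19 tile from 149757001 had an adjusted p of 0.0317 for K36M against K9M. Single CpGs had second counts as low as 10 and WT 1 library, so differences from WT within its counting intervals cannot be told from counting error in WT. The smallest detectable difference was not computed.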
